A study of Rattus norvegicus with 6 samples.

Results

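The 9 genes described here encode the channels, anchoring protein, stores, pumps and buffer through which skeletal muscle moves calcium: Ryr1, Cacna1s, Cacng1, Trdn, Casq1, Casq2, Atp2a1, Atp2a2 and Pvalb. They are 9 of the 14217 genes that had a probe set of their own on the array, and they were chosen by name. Each is represented by the brightest of the probe sets that the platform annotation assigns to it alone, 17 probe sets in all for the 9 genes. The tissue was rat Achilles tendon, taken on post-natal day 7 (3 arrays) and post-natal day 1 (3 arrays). No treatment or genetic change is named for either age, and the sources used here give neither the strain and sex of the animals nor how they were pooled. Every array carried RNA of 2 or more animals, so the p-values describe the spread between such pools.

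In a muscle fibre, an action potential travels along the surface membrane and into the transverse tubules, where a voltage-sensing calcium channel faces the calcium release channel of the sarcoplasmic reticulum. The release channel opens, calcium leaves the store in which calsequestrin holds it, and the filaments contract. Calcium pumps of the reticulum then return calcium to the store and relax the fibre, and in fast fibres the soluble protein parvalbumin takes up calcium in the meantime. Tendon cells do not contract by this apparatus. Most of the 9 genes are therefore muscle genes measured in tissue labelled as tendon. Not all are restricted to muscle, and the pump of Atp2a2 is made in most other cells too.

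Both the tendon and the muscle transcripts were present on all arrays. The tendon markers Scx, a transcription factor of tendon cells, and Tnmd, a tendon membrane protein, had lowest intensities of 797 and 4925 on the day 7 arrays, against 603 and 2279 on the day 1 arrays. The intensities of Acta1, the actin of skeletal muscle, were 10321 to 12900 on day 7, against 11815 to 13294 on day 1. The median probe set had an intensity between 20.5 and 21.1, and 3 probe sets for a bacterial trp transcript, which rat RNA does not contain, read at most 4.76.

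Of the 9 genes, Ryr1 and Casq2 were lower on day 7 and none was higher at an adjusted p under 0.05 (limma, Benjamini-Hochberg over all probe sets tested), where 3.15% of all genes were lower and 1.93% higher. At an unadjusted p under 0.05, 5 of the 9 were lower and none higher, against 17.0% and 10.6% of all genes. The log2 change was negative for 8 of the 9, Pvalb being the exception, and its median over the 9 was -0.81, against -0.01 over all genes. For 4 of the 9 (Ryr1, Cacna1s, Casq1 and Casq2) every day 7 array lay below every day 1 array, as it did for 19.1% of all genes, and for none did every day 7 array lie above, as for 14.0% of all genes. In tissue of several cell types, a smaller number of muscle cells and less of a transcript per muscle cell cannot be told apart.

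**Figure D1:**
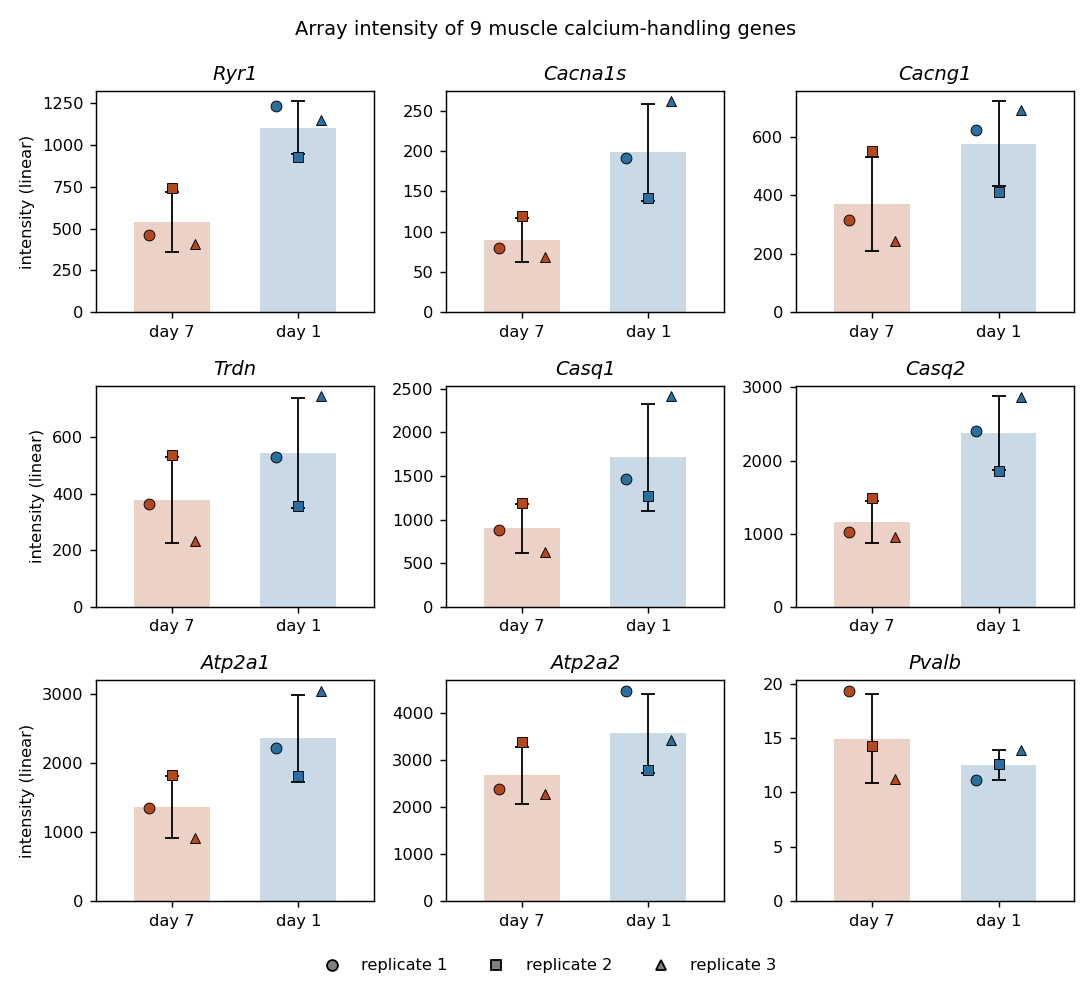
Intensity on a linear scale (vertical axes, each starting at 0) of the 9 genes on each array, with day 7 left of day 1; bars are means, whiskers 1 SD and symbols the 3 replicates. Replicate 2 (squares) was the highest day 7 array and the lowest day 1 array for every gene but Pvalb.

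RefSeq's table of promoters held 8 of the 9 genes, and 5 of these sequences are shown, from 250 bases before the start site to 50 after it. Ryr1 and Casq2 are shown because they passed the test. Cacna1s and Atp2a1 are shown because they hold the E-box form that muscle regulators such as MyoD prefer, and Atp2a2 as the member whose pump most cells make. In assembly GRCr8 they lie at Ryr1 chr1:93551256-93551555 on the minus strand, Cacna1s chr13:50045418-50045717 on the plus strand, Casq2 chr2:192214306-192214605 on the plus strand, Atp2a1 chr1:190475361-190475660 on the minus strand and Atp2a2 chr12:39733269-39733568 on the plus strand. Sequences run 5′ to 3′ on the strand of the gene, and capitals mark the hexamer CAGCTG and the MEF2 motif.
Ryr1 promoter: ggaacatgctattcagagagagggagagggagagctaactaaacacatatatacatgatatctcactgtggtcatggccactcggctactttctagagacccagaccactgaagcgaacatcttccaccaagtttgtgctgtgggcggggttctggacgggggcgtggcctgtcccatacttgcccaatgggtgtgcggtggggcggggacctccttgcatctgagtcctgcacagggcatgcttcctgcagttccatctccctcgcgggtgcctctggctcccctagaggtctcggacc
Cacna1s promoter: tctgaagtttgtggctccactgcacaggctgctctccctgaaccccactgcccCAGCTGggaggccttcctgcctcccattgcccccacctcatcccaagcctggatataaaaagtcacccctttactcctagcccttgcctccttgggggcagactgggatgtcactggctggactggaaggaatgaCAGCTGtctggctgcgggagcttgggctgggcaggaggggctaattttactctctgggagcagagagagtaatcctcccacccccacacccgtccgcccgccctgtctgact
Casq2 promoter: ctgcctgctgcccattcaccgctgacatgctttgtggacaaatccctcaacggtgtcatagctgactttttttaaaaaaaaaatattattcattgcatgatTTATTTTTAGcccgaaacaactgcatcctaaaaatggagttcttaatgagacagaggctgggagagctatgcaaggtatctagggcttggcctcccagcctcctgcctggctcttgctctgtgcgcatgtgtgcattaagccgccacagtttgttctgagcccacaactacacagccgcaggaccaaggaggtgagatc
Atp2a1 promoter: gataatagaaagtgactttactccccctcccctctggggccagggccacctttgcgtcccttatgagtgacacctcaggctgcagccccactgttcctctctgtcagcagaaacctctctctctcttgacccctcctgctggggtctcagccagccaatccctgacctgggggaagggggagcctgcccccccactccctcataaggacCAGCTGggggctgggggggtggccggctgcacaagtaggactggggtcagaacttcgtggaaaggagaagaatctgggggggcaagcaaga
Atp2a2 promoter: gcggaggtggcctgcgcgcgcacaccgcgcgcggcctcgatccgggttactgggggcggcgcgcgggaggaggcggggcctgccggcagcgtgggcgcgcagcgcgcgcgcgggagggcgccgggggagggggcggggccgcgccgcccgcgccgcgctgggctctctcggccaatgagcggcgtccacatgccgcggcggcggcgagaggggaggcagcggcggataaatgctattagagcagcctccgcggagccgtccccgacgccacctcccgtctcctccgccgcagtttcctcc
The hexamer CAGCTG, which is its own reverse complement and 1 form of the general E-box CANNTG, was found in the promoters of 3 of the 8 genes (Cacna1s, Casq1 and Atp2a1) and in 15.1% of the 27457 promoters of the table. It lay 36 to 41 bases before the start site in Atp2a1. In Cacna1s it occurred at 57 to 62 and at 192 to 197 bases before it, and in Casq1 at 217 to 222. The MEF2 motif was found in 1 of the 8, at 140 to 149 bases before the start site of Casq2, and in 3.37% of all promoters, searched on both strands. The general form CANNTG was in all 8 and in 71.7% of all promoters. Atp2a2 stood apart in base composition, with 79.0% G and C and 52 CpG dinucleotides in its 300 bases, where the other 7 had 44.3% to 61.0% and at most 23, and the median promoter had 52.3% and 7. These matches describe the letters in the window and were not tested for binding.

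Ryr1, the calcium release channel of the sarcoplasmic reticulum, had intensities of 465, 742 and 409 on day 7, against 1234, 932 and 1151 on day 1 (replicates 1, 2 and 3). The ages did not overlap, and the day 7 array nearest to day 1 was replicate 2. Ryr1 averaged 539 ± 178 on day 7 and 1106 ± 156 on day 1 (SD, n = 3 each), a 2.11-fold lower level at the later age (log2 change of -1.08 with an SE of 0.23; limma adjusted p = 0.0462). The call was kept without day 7 replicate 2 (adjusted p = 0.0191) and lost without any 1 of the other 5 arrays, with adjusted p-values from 0.0539 without day 1 replicate 2 to 0.164 without day 7 replicate 1. It was also lost with a pseudocount of 16 (0.0803).

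Cacna1s, the pore-forming and voltage-sensing subunit of the channel in the transverse tubule, had intensities of 79.2, 119.8 and 67.8 on day 7, against 191, 142 and 262 on day 1. As with Ryr1, the ages did not overlap. The log2 change of -1.15 (SE 0.27), the largest in size among the 9, just missed the threshold (limma adjusted p = 0.0596), with a 95% interval from -1.76 to -0.53. It passed when day 1 replicate 2 (0.0454) or day 7 replicate 2 (0.0433) was left out, and also with array weights (0.0330), with an intensity trend (0.0411) and among the brighter probe sets alone (0.0407). It did not pass without any of the other arrays, with adjusted p-values up to 0.188. Nor did it pass with quantile normalization (0.0661), centring on medians (0.0589), a pseudocount of 16 (0.103) or the replicate block (0.156). Cacng1, the gamma subunit of the same channel, had 316, 552 and 243 on day 7, against 624, 413 and 691 on day 1. Here the ages overlapped, since day 7 replicate 2 lay above day 1 replicate 2. Its log2 change was -0.69 (95% interval -1.40 to 0.03; limma adjusted p = 0.245).

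Trdn encodes triadin, which holds calsequestrin to the release channel. Its brightest probe set read 365, 537 and 233 on day 7, against 531, 357 and 746 on day 1. The ages overlapped, with 2 of the day 7 arrays above the lowest day 1 array. The log2 change was -0.54 (95% interval -1.33 to 0.25; limma adjusted p = 0.396). The other 3 probe sets of Trdn had changes of -0.80, -1.15 and -1.19 (adjusted p = 0.186, 0.120 and 0.0904), all larger in size than that of the brightest one. With the mean of the 4 probe sets the log2 change of Trdn was -0.92 (adjusted p = 0.164).

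Casq1 and Casq2 encode the calsequestrins, which bind calcium inside the reticulum. Casq1 is the form of skeletal muscle, and Casq2 is the form of the heart that slow and developing skeletal fibres also make. Casq2 had 1027, 1491 and 954 on day 7, against 2407, 1863 and 2867 on day 1. No day 7 array reached the lowest day 1 array. Casq2 averaged 1157 ± 291 on day 7 and 2379 ± 503 on day 1 (SD, n = 3 each), 2.06-fold lower at the later age (log2 change of -1.05 with an SE of 0.21; limma adjusted p = 0.0434). Its other probe set read 350.0, 521 and 299.8 on day 7, against 805, 668 and 1223 on day 1, and had a log2 change of -1.19 (adjusted p = 0.0540). The call of Casq2 was kept when day 1 replicate 2 (0.0399) or day 7 replicate 2 (0.0322) was left out, and lost without any of the other 4 arrays (0.138 and 0.117 for replicates 1 and 3 of day 1, 0.156 and 0.114 for replicates 1 and 3 of day 7). It was also lost with a pseudocount of 16 (0.0753).

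Casq1 had 878, 1189.9 and 627 on day 7, against 1459.9, 1272 and 2415 on day 1. These ages did not overlap either, but day 7 replicate 2 and day 1 replicate 2 were close. The log2 change was -0.92 (95% interval -1.60 to -0.25) and did not pass after adjustment (unadjusted p = 0.0133, limma adjusted p = 0.119). The change of Casq1 lay inside the interval of that of Casq2 (-1.54 to -0.55).

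Atp2a1 encodes SERCA1, the calcium pump of fast fibres. It had 1356, 1827 and 923 on day 7, against 2221, 1810.2 and 3049.9 on day 1. The overlap came from the arrays numbered 2, which were nearly equal. The log2 change was -0.81 (95% interval -1.44 to -0.18; unadjusted p = 0.0184, limma adjusted p = 0.138).

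Atp2a2 encodes SERCA2, the pump of slow fibres and heart and, in another splice form, of most cells. Its brightest probe set read 2396, 3379.7 and 2276 on day 7, against 4478, 2799 and 3437 on day 1. The ages overlapped, and the log2 change was -0.41 (95% interval -0.90 to 0.08; limma adjusted p = 0.305). The other 4 probe sets of Atp2a2 did not follow it. The next brightest read 389, 366 and 387 on day 7, against 436, 421 and 359.6 on day 1, a log2 change of -0.09, and the remaining 3 had changes of -0.23, -0.08 and 0.44, none of which passed (adjusted p from 0.258 to 0.867). With the mean of the 5 probe sets the log2 change was -0.07 (adjusted p = 0.782). Which splice form each probe set reads was not analysed here.

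Pvalb, the cytosolic calcium buffer of fast fibres, was dim on every array. It had 19.3, 14.3 and 11.2 on day 7, against 11.2, 12.6 and 13.9 on day 1. All of these values, the lowest being 11.2, lay above the trp probe sets but below the intensity of the median probe set. The log2 change was 0.21 (95% interval -0.23 to 0.64; limma adjusted p = 0.562), so at this signal no change was detectable.

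**Figure D2:**
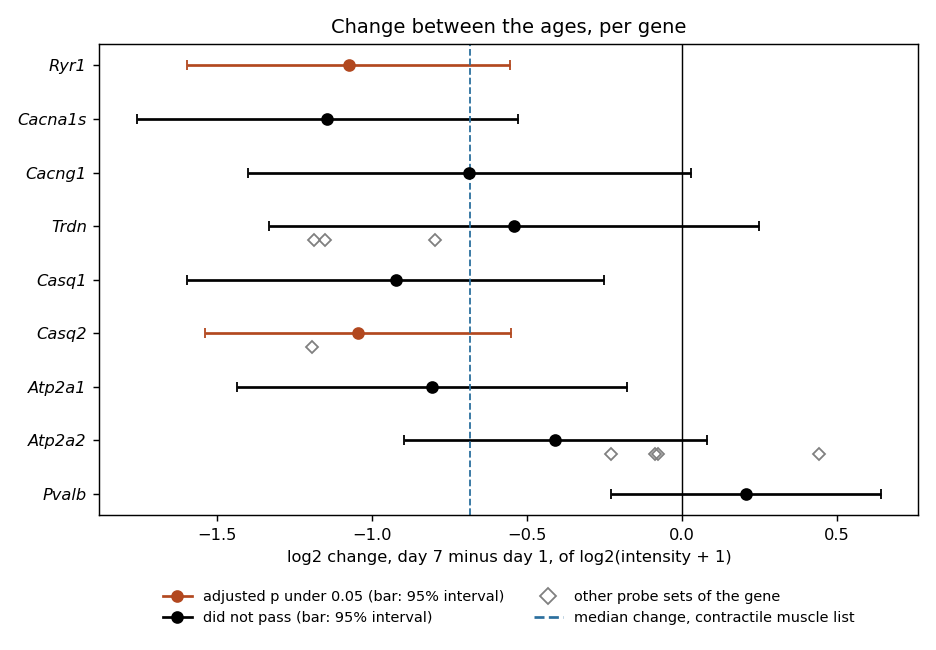
Log2 change on day 7 minus day 1 (horizontal axis) for each of the 9 genes, with 95% intervals from limma; filled circles are the representative probe sets, open diamonds the other probe sets of the gene, and the dashed line is the median change of 31 contractile muscle genes (-0.69). Ryr1 and Casq2 are coloured because they passed the threshold, and the diamonds of Atp2a2 lie to the right of its circle.

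Except for Pvalb, the genes went up and down together from array to array. Replicate 2 was the highest of the day 7 arrays for 8 of the 9, and replicate 3 the lowest for all 9. On day 1, replicate 2 was the lowest for 8 of the 9. The correlation of each gene with the mean of the other 8 over the 6 arrays was 0.82 for Atp2a2, between 0.92 and 0.99 for the 7 others that moved together, and -0.16 for Pvalb. These are descriptions over 6 arrays of 2 ages that share their libraries. After the mean of each age was taken off, the correlations were 0.69 for Atp2a2, 0.29 for Pvalb and between 0.87 and 0.99 for the others.

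The same arrays ranked the contractile genes in the same way. A list of 33 genes of the sarcomere and muscle metabolism, of which 31 were measured, stood at -0.35, 0.07 and -0.69 on day 7, against 0.41, 0.02 and 0.49 on day 1 (median of the genes' log2 values relative to their mean over the 6 arrays). The median of the 9 calcium-handling genes stood at -0.45, 0.07 and -0.88 on day 7, against 0.49, 0.05 and 0.79 on day 1. Because the arrays numbered 2 were nearest to the other age for 8 of the 9 genes in these same values, a fit without them widens the difference by its construction and does not add support. In that fit 4 of the 9 were lower on day 7, namely Ryr1 and Casq2 (adjusted p = 0.0206 each), Cacna1s (0.0240) and Cacng1 (0.0300), and none was higher. Over all genes 609 were lower and 228 higher, against 448 and 274 with all arrays.

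**Figure D3:**
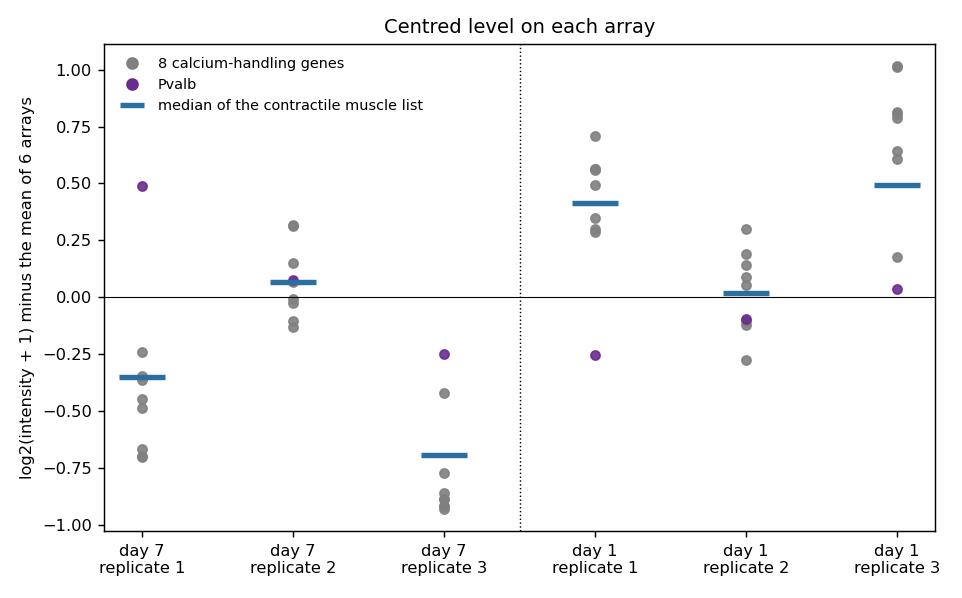
Log2 level of each gene relative to its mean over the 6 arrays (vertical axis) on each array, day 7 left of the dotted line and day 1 right of it; grey points are 8 calcium-handling genes, purple points Pvalb, and blue bars the median of 31 contractile muscle genes. The blue bars run from -0.69 on day 7 replicate 3 to 0.49 on day 1 replicate 3. Except for Atp2a2, the grey points lie below the bar on day 7 replicate 3 and above it on day 1 replicate 3.

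Each gene's centred log2 level was also set against the contractile list on the same array. The median of that list changed by -0.63, with overlap of the ages (exact permutation p = 0.2, two-sided). A gene with no change of its own therefore stands higher on day 7 on this scale. Ryr1 then stood at -0.35, -0.09 and -0.19 on day 7, against 0.29, 0.28 and 0.11 on day 1, a difference of -0.44. Cacna1s differed by -0.51 and Casq2 by -0.41, and for these 3 genes every day 7 array lay below every day 1 array, as it did for 1.20% of all genes on this scale. That share was 19.1% before the list was taken off, since taking off a falling list lifts other genes on day 7. The 3 genes had the largest falls among the 9 before this step, so their place here adds no separate support. Pvalb lay above on every day 7 array, by 0.84 on average, as 38.0% of all genes did, and with its dim signal and the overlap of its own ages this difference says nothing of a change in Pvalb. Each of these 4 comparisons had an exact permutation p of 0.1 (two-sided), the smallest that 3 arrays against 3 can give, so none of the 9 could pass. For Casq1 (-0.29), Atp2a1 (-0.18), Cacng1 (-0.05), Trdn (0.09) and Atp2a2 (0.22) the ages overlapped on this scale, with exact permutation p-values from 0.3 to 0.8.

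**Figure D4:**
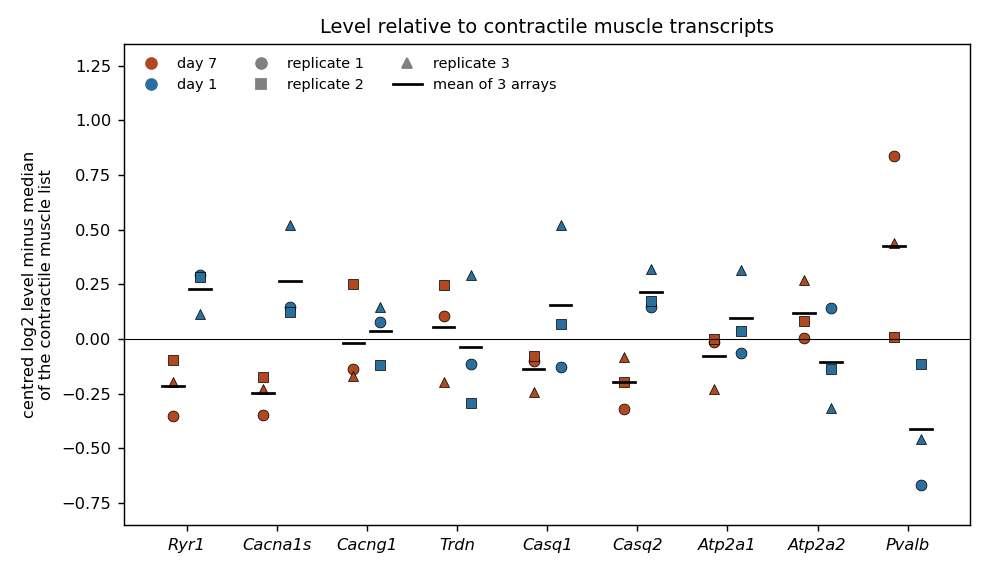
Centred log2 level of each of the 9 genes minus the median of the contractile muscle list on the same array (vertical axis), day 7 left of day 1 within each gene; symbols are the replicates and black lines the means of 3 arrays. Day 7 lies below day 1 without overlap for Ryr1, Cacna1s and Casq2, and above it for Pvalb, whose ages overlapped before the list was taken off.

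The genes of proteins that work beside these channels gave no call. Of 18 genes of the triad and the store (anchors, accessory subunits, calcium-binding proteins and ion channels of the reticulum), 16 had a negative log2 change and the median was -0.65, with no gene lower or higher in limma. At an unadjusted p under 0.05, 11 were lower and none higher. Cacna2d1, which encodes the alpha2-delta subunit that accompanies Cacna1s, had 200, 299 and 159 on day 7, against 456, 349 and 475 on day 1. Its ages did not overlap, with a log2 change of -0.99 (SE 0.23; limma adjusted p = 0.0604). Of the 6 fits without 1 array only that without day 7 replicate 2 passed (0.0287), and the others ranged up to 0.188. Tmem38b, a potassium channel of the reticulum, had a log2 change of -1.07 (adjusted p = 0.0825).

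Small regulators of the pump and other pump forms gave no call among 4 genes in limma. At an unadjusted p under 0.05, 2 were lower and none higher, and the median log2 change was -0.63. Mrln, the micropeptide myoregulin that restrains SERCA in skeletal muscle, had a log2 change of -1.17 (limma adjusted p = 0.0968). Sln, the related inhibitor sarcolipin, had 1419, 2693 and 1159 on day 7, against 3294, 2185 and 3591 on day 1. The ages of Sln overlapped through the arrays numbered 2, as for Atp2a1, and its log2 change was -0.85 (adjusted p = 0.174). Sln passed in 1 of the 6 fits without 1 array, at 0.0478 without day 7 replicate 2, with values up to 0.388 in the others.

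Among 12 other calcium channels, Cacna1h and Cacng6 fell, and no gene rose. The median log2 change of the 12 was 0.18, with 4 negative and the highest at 0.47, and at an unadjusted p under 0.05 there were 3 lower and 3 higher. Every day 7 array lay below every day 1 array for 3 of the 12 and above for 4, against 19.1% and 14.0% of all genes. The largest change in size was that of Ryr3, a release channel related to Ryr1, at -1.77 without overlap of the ages, and it did not pass (adjusted p = 0.0805). Cacna1h, a low-voltage-activated T-type channel, had 13.4, 19.7 and 13.3 on day 7, against 51.7, 32.4 and 63.0 on day 1. Its day 7 values were dim, below the intensity of the median probe set, so the size of its fold change is uncertain. All day 7 arrays lay below day 1 (2.97-fold lower; limma adjusted p = 0.0251), although the log2 change was -0.75 with the mean of its probe sets (0.0636) and -1.02 with a pseudocount of 16 (0.0593). Cacng6, a relative of Cacng1, was 1.63-fold lower (0.0259). Both calls were kept when an array numbered 2 of either age was left out and lost without any other single array, with adjusted p-values up to 0.115 for each.

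Calcium genes that cells in general use gave no call. Of 16 measured (of 20 listed) genes, among them plasma membrane pumps, exchangers, store-operated channels and chaperones, none was lower or higher in limma, where an unadjusted p under 0.05 counted 5 lower and 2 higher. Their median log2 change was -0.12. Canx, the chaperone calnexin of the endoplasmic reticulum, had a log2 change of -0.43 (limma adjusted p = 0.0602) and Orai1, the pore of store-operated calcium entry, one of -0.65 (0.0705). Orai1 passed in 1 of the 6 fits without 1 array, at 0.0491 without day 1 replicate 2, with values up to 0.209 in the others. The channels and receptors of the muscle membrane, 11 measured of 16, had a median of -0.20, and 1 of them fell. This was Chrng, the subunit of the fetal acetylcholine receptor, at 42.6, 36.2 and 40.2 on day 7, against 134, 88.1 and 195 on day 1 (3.28-fold lower; limma adjusted p = 0.0209). Leaving out day 1 replicate 1 (0.0807), day 7 replicate 1 (0.0937) or day 7 replicate 3 (0.0630) ended its call, as did a pseudocount of 16 (0.0522). At an unadjusted p under 0.05, 5 of the 11 were lower and none higher, the others being Chrnd, Chrna1 and Chrnb1, further subunits of the acetylcholine receptor, with log2 changes of -1.50, -1.62 and -1.31, and Kcnj11 with -0.78. These 4 were named after their values were seen, and none of them passed after adjustment (0.0546 to 0.0907). Chrne, the other receptor subunit of the list, did not show such a fall. It was dim, with means of 12.6 on day 7 and 13.3 on day 1 (log2 change -0.06, limma adjusted p = 0.835).

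Of 31 contractile genes measured, 29 had a negative log2 change, as most of the calcium-handling genes did, and the median was -0.69. At an unadjusted p under 0.05, 22 were lower and 1 higher. After adjustment Myh3 and Myh8, the embryonic and perinatal myosin heavy chains, fell and Myh2, the adult IIa chain, rose. Myh2 had 658, 1047 and 613 on day 7, against 255, 75.4 and 77.2 on day 1 (6.52-fold higher; limma adjusted p = 0.0277). Its call was kept without day 1 replicate 1 (0.0302) or day 1 replicate 2 (0.0491) and lost without day 1 replicate 3 (0.0758) or any 1 of the day 7 arrays (0.112, 0.0545 and 0.0683 for replicates 1, 2 and 3) or with a pseudocount of 16 (0.0579). Myh3 was 1.84-fold lower (0.0313) and Myh8 1.85-fold lower (0.0433). Myh3 passed in 1 of the 6 fits without 1 array, the one without day 7 replicate 2 (0.0183), and Myh8 in none. The call of Myh8 also ended with a pseudocount of 16 (0.0703). Among 10 measured genes of fast fibres 7 were lower and 1 higher by unadjusted p, and the median was -0.75, while the 1 that passed after adjustment, Myh2, ran the other way. Among 8 of slow fibres none was lower or higher in limma (2 lower and none higher by unadjusted p). The slow fibre median was -0.30, and its smallest adjusted p-values were those of the troponins Tnni1 (log2 change -0.69, 0.107) and Tnnt1 (-0.57, 0.185). Tnni1 passed in 1 of the 6 fits without 1 array, at 0.0452 without day 7 replicate 2, with values up to 0.268 in the others. Of 9 measured myogenic regulators 5 fell (Mymk, Myod1, Myog, Mef2c and Eya1), with a median of -1.31. Mymk passed in 5 of the 6 fits without 1 array, Myod1, Myog and Mef2c in 2 each and Eya1 in 0. With a pseudocount of 16 the call of Mymk was kept (0.0327) and those of Myod1 (0.0579), Myog (0.0700), Mef2c (0.0703) and Eya1 (0.104) were lost.

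Genes whose levels over the 6 arrays were most like the mean of the 9 were Trim63, Tmod4, Nt5c3a, Klhl40, Schip1 and Pygm (Pearson's r from 0.996 to 0.999 over 6 arrays of 2 ages, a description with no test). Trim63 is a ubiquitin ligase of muscle, Tmod4 a cap of thin filaments in skeletal muscle, Klhl40 a protein of the sarcomere and Pygm the glycogen phosphorylase of muscle. Their log2 changes lay between -0.42 and -1.17, and none passed (limma adjusted p from 0.0892 to 0.170; Pygm alone passed in a fit without 1 array, at 0.0404 without day 7 replicate 2). Pvalb, which did not follow the others, was closest to Tmem106b, Ezh1 and Cirbp (r from 0.984 to 0.988), with changes of 0.12 to 0.24.

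Some markers of other tissues also differed between the ages. The summed intensity of 10 fat cell markers was 3054 to 6391 on day 7 and 1595 to 1801 on day 1, with 8 of the 10 higher. That of 8 nerve markers was 2315 to 8965 on day 7 and 1959 to 2365 on day 1. The nerve sums overlapped, since day 7 replicate 2 lay below day 1 replicate 2. Of the nerve markers 1 was higher (S100b) and 1 lower (Ngfr). S100b passed in 2 and Ngfr in 1 of the 6 fits without 1 array, both calls were lost with a pseudocount of 16 (0.0811 and 0.0978), and that of Ngfr also with quantile normalization (0.0593) and in the fit on gene means of probe sets (0.0504). The 9 tendon markers measured summed to 48049 to 62488 on day 7 and 27138 to 45250 on day 1, with 2 higher (Dcn and Comp) and 1 lower (Egr1). Without 1 array Dcn passed in 1, Comp in 2 and Egr1 in 4 of the 6 fits, and the call of Comp was lost with a pseudocount of 16 (0.0617). The 31 contractile genes summed to 71561 to 107386 on day 7 and 105951 to 133240 on day 1, also with overlap. What part these shares had in the values of the 9 genes was not tested. The median log2 change of 8 heart muscle markers was 0.002, with 4 of the 8 negative. At an unadjusted p under 0.05, 2 were lower and 1 was higher, the latter being Gata4 (log2 change 0.34, limma adjusted p = 0.144). Nppa and Myl7 were dim, Myl7 near the negative control and Nppa above it. They read at most 8.60 and 4.65 on day 7 and at most 9.21 and 5.13 on day 1. Tnni3, the heart troponin I, read 13.5, 14.9 and 7.34 on day 7, against 37.7, 20.5 and 32.7 on day 1, below on every day 7 array (log2 change -1.29, limma adjusted p = 0.0555), and Myh6, a heart myosin, read 12.3 to 31.3 on day 7 and 19.3 to 43.5 on day 1 with overlap. The troponin Tnnt2, which immature skeletal muscle also makes, was the 1 marker lower on day 7 after adjustment (limma adjusted p = 0.0286, passed in 2 of the 6 fits without 1 array and lost with a pseudocount of 16, at 0.0598). Of 8 smooth muscle markers none was lower or higher in limma (4 lower and 2 higher at an unadjusted p under 0.05), the nearest being Myh11, the smooth muscle myosin heavy chain, with a log2 change of 1.09 (adjusted p = 0.0546).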

How the data were processed

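The deposited table held the authors' intensity of each probe set on a linear scale for the 6 arrays. Per the submitters' processing notes the tools were MAS5 and RMA, with no role or version given, and the sources used here do not say how background and scale were set. Biotin-labelled RNA was hybridized to the Rat Genome 230 2.0 Array, per the labels. Values were taken as log2(value + 1) without further normalization. Of 31099 probe sets, 57 controls were left out. An annotation gave 1 gene to 20826 of the other 31042, several to 436 and none to 9780, and 20758 matched a RefSeq gene table of GRCr8 by gene identifier. Ages were compared by limma's moderated test, two-sided (version 3.58.1, R 4.3.3). P-values were adjusted by Benjamini-Hochberg over the 31042 probe sets, with a threshold of 0.05. SE is the moderated standard error, and fold changes are on the log2(value + 1) scale. The fit was tested on simulated intensities.

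The genes, the lists and the tests were chosen with earlier results of these data known. Named genes are the 9 genes, the called genes of each list (at most 6, otherwise the 2 with the smallest adjusted p) and the genes most alike over the arrays; further genes, such as Acta1, Scx, Tnmd, Nppa, Myl7, Tnni3, Myh6 and Ryr3, were named after their values were seen. Some genes of the lists are not reported here. Alternatives were quantile normalization, centring on medians, brighter probe sets only, the mean of probe sets, array weights, robust variances with a trend on intensity, a pseudocount of 16, the replicate number as a block, each array left out, and both arrays numbered 2 left out. For arrays, signal over background stands for depth, and the number of arrays limits the precision.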

Additional observations from a re-analysis of the deposited data

How the results depend on the processing

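None of the 9 genes changed sign in any alternative run. The number of lower genes among the 9 was 2 with all arrays, 0 with a pseudocount of 16, 0 with the replicate block, 4 without replicate 2 of both ages, and between 0 and 3 with 1 array left out; the number of higher ones was 0 throughout. Over all genes, 448 were lower and 274 higher. Array weights gave 897 and 538, a pseudocount of 16 gave 393 and 182, and the replicate block gave 8 and 25. Of 23 named genes called in the lists, 13 lost the call with a pseudocount of 16, 20 with the replicate block and 3 to 22 with 1 array left out. Leaving out 1 array gave 0 to 382 lower and 4 to 271 higher, lowest without day 7 replicate 1. Fits without 1 array have fewer residual degrees of freedom. Quantile normalization called 320 lower and 352 higher, so the share of higher genes moved with the scaling, while Ryr1 and Casq2 passed there too (adjusted p = 0.0428 and 0.0407). The other causes were not tested. Ezh1 had a log2 change between -0.0015 and 0.24 with 1 array left out, negative without day 7 replicate 1. The labels do not say what the replicate numbers mark. The deviations of same-numbered arrays from their age means correlated at 0.05, -0.25 and -0.14, and those of differently numbered arrays between -0.11 and 0.25. With 3 arrays per age these values cannot show whether same-numbered samples had anything else in common. With the replicate number as a block Ryr1 had a limma adjusted p of 0.126 and Casq2 of 0.132. Pvalb, at a mean of 14.9 on day 7 and 12.5 on day 1, is too dim for a reliable fold change.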
